A study of Mus musculus with 6 samples.

Results

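The genes examined were 54 homeobox and POU transcription factor genes, chosen by name from outside the Hox, Lhx, Isl, Pax, sine oculis-type, Irx, Nkx and Dlx families. All 54 were found among the 21951 protein-coding genes of the mouse annotation. A gene was scored as marked in a library when a peak of H3K27me3, a repressive histone mark, overlapped its promoter window, defined as 2000 bp on either side of any of its transcription start sites (TSSs). The peaks came from CUT&Tag of ovarian granulosa cells (GCs), in which an antibody directs a transposase to marked chromatin. The mice were 3-week-old ICR females in which follicle growth had been started with pregnant mare's serum gonadotropin in both groups. They then received a single intraperitoneal injection of the alkylating drug cyclophosphamide (CTX group) or of phosphate-buffered saline (PBS group), and GCs were taken 6 h later. Each group had 3 libraries, and the GCs of 3 mice were pooled for a library.

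Homeobox genes encode transcription factors that bind DNA through a homeodomain and give cells of the embryo their regional identity, and POU factors join such a homeodomain to a second DNA-binding domain. In cells that do not use them, many of these genes are kept silent by Polycomb repressive complex 2, whose catalytic subunit EZH2 trimethylates lysine 27 of histone H3. The mark is typically found around promoters rich in CpG dinucleotides.

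The depth recovered from the peak lists was 1376 to 1958 reads per Mb in PBS libraries and 1118 to 1630 reads per Mb in CTX libraries. Markers of cell types were also scored, and none of 14 granulosa cell markers (0) and none of 7 oocyte markers (0) carried a promoter peak. Of all protein-coding genes 88% carried none in any library, so this absence cannot check the labelled cell type. Of 6 markers of theca and stroma, Pdgfra was marked in all 6 libraries, and Col1a1, Insl3 and Tcf21 in some of them. Of 8 markers of blood and endothelium, Kdr and Ptprc were marked in some libraries. A peak at a marker does not measure how many cells of that type were present, and the part of other cell types in the results was not tested.

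The DNA behind the results differed among the genes, and 5 stretches are shown, each read 5′ to 3′ on the strand of the gene in mm10 with every CpG in capitals. The 250 bases before the RefSeq start of Meox2 (chr12:37108290-37108539, plus strand, 12 CpGs) are shown because peaks covered all 250 in all 6 libraries. Those before Pou4f1 (chr14:104468000-104468249, minus strand, 47 CpGs) are shown because no peak touched them in any library although the gene was marked in all 6. The 132 bases upstream of Pou4f1 that did carry a peak in all 6 libraries (chr14:104469868-104469999, 1 CpG) stand beside them. This stretch is cut off at the edge of the promoter window, so its CpG count is not that of the whole peak. The 250 bases before Msx1 (chr5:37824586-37824835, minus strand, 20 CpGs) represent the genes without a promoter peak. The 215 bases of Barx2 (chr9:31914269-31914483, minus strand, 14 CpGs) lay in intergenic sequence and were covered in all 6 libraries.
Meox2, before the start: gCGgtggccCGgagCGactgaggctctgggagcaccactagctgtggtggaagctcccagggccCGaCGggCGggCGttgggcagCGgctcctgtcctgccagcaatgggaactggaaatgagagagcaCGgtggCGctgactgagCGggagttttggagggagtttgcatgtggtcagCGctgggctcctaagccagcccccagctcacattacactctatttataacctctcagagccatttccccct
Pou4f1, before the start: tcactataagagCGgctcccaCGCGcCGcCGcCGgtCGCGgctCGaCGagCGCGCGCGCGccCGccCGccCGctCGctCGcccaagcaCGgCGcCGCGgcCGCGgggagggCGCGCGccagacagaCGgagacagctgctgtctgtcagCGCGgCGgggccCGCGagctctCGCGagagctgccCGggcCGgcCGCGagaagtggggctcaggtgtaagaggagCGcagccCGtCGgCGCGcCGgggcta
Pou4f1, covered in all 6 libraries: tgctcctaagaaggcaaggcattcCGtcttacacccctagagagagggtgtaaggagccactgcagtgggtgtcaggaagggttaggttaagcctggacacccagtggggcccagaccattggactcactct
Msx1, before the start: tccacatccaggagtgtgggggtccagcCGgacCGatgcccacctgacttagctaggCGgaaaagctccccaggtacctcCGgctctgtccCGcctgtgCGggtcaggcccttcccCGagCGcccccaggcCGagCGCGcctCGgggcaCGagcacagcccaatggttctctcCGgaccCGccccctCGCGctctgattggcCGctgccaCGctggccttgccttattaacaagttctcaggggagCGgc
Barx2, covered in all 6 libraries: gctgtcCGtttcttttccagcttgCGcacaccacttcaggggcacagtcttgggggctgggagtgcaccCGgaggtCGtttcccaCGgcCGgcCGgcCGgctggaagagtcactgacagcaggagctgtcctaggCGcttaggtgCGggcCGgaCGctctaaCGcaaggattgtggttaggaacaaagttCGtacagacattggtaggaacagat

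To determine how widely these regulators carried the mark, the marked genes were counted in each library. In the PBS libraries 44, 35 and 38 of the 54 genes had a promoter peak, and in CTX libraries 27, 37 and 22 had one. CTX replicate 2 thus lay within the range of the PBS libraries, and the groups overlapped. The mean was 39 ± 4.58 genes for PBS and 28.7 ± 7.64 for CTX (SD, n = 3 libraries), a difference of -10.3 genes (exact permutation p = 0.2, two-sided). With 3 against 3 libraries, no p-value below 0.1 is possible. As a share, 72.2% ± 8.49 of the genes were marked in PBS libraries and 53.1% ± 14.1 in CTX libraries, against 8.33% ± 1.04 and 6.04% ± 1.37 of all protein-coding genes (SD, n = 3).

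Peaks covered 36.4, 21.3 and 32.4 kb of the promoter windows, 301.8 kb in all, in PBS libraries. They covered 15.0, 24.3 and 10.3 kb in CTX libraries. The means were 30.0 ± 7.81 kb and 16.5 ± 7.10 kb (SD, n = 3), a difference of -13.5 kb with overlapping groups (exact permutation p = 0.2). The deepest library, PBS replicate 1, had the highest value of both measures, and the shallowest, CTX replicate 3, had the lowest. The part of depth in the differences was not tested. With equal numbers of peaks taken from each list, the differences were -4.67 genes (exact permutation p = 0.3) and -7.32 kb (exact permutation p = 0.2). PBS replicate 3 and CTX replicate 2 had nearly equal depths of 1594 and 1630 reads per Mb, with 38 and 37 marked genes and 32.4 and 24.3 kb. PBS replicate 2 and CTX replicate 1 had 1376 and 1433 reads per Mb, with 35 and 27 marked genes and 21.3 and 15.0 kb.

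**Figure D1:**
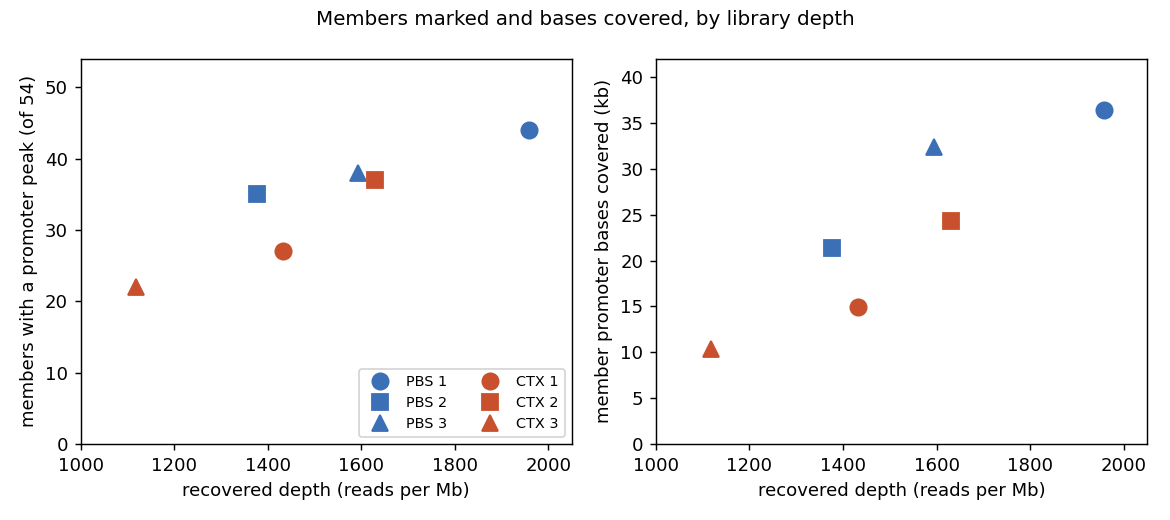
Each point is a library, with the depth recovered from its peak list (reads per Mb) on the horizontal axis and, on the vertical axes, the number of the 54 genes with a promoter peak (left) and the promoter bases covered in kb (right). CTX replicate 3, the shallowest library at 1118 reads per Mb, had 22 marked genes and PBS replicate 1, the deepest at 1958, had 44.

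To set the genes against the rest of each list, their share of all marked genes was taken. They made up 2.20%, 2.23% and 1.98% of all marked protein-coding genes in PBS libraries and 1.99%, 2.30% and 2.18% in CTX libraries, a difference of 0.0161 percentage points (exact permutation p = 0.9). That difference turned negative, to -0.0628 percentage points, without PBS replicate 3 and to -0.0547 without CTX replicate 2. Of 31 genes of the group that were marked in all 3 PBS libraries, 58.1% were marked in all 3 CTX libraries, and of 1296 other protein-coding genes marked in all 3 PBS libraries 58.2% were.

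Grouped by where they act in development, the 5 endoderm and gut genes had the highest mean share in both groups, with 80% to 100% marked in PBS libraries and 60% to 100% in CTX libraries. Cdx1, Cdx2 and Pdx1 were marked in all 6 libraries. Cdx1 and Cdx2 pattern the posterior gut, and Pdx1 directs the pancreas. Hhex, needed for the foregut and liver, missed CTX replicate 3, and Hlx, a gut mesenchyme factor, was marked in PBS replicates 1 and 3 and in CTX replicate 2.

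Of 18 genes that set regions of the brain, 15, 10 and 14 were marked in PBS libraries and 9, 12 and 7 in CTX libraries. Those marked in all 6 were Emx1 of the cerebral cortex, Otx1 and Otx2 of the forebrain and midbrain, Gbx1 and the hypothalamic factor Otp. Of 11 spinal cord and sensory neuron genes, 9, 7 and 5 were marked in PBS libraries and 7, 6 and 5 in CTX libraries. Dbx2 and Lbx1 of spinal interneurons, Tlx1, and Vsx1 of retinal interneurons were marked in all 6.

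Of 14 genes of the limbs, face and axial mesoderm, 10, 9 and 9 were marked in PBS libraries and 5, 9 and 5 in CTX libraries. Barx2, the organizer gene Gsc, the somite gene Meox2 and Pitx1, which specifies the hindlimb, were marked in all 6. Of the 6 POU genes, 5 were marked in each PBS library, and 2, 5 and 2 in CTX libraries. Pou4f1 and Pou4f2, known from sensory and retinal ganglion neurons, were marked in all 6, while Pou3f1, Pou3f2 and Pou4f3 were marked in the CTX group in replicate 2 alone.

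In all, 18 genes (33.3%) were marked in all 6 libraries, against 3.52% of all protein-coding genes. A further 6 genes (Barx1, En2, Hhex, Lmx1a, Phox2a and Vax1) were marked in all 3 PBS libraries and 2 CTX libraries, Tlx3 in 2 PBS and all 3 CTX libraries, and Barhl1 and Barhl2 in 2 of each group. Gsx2, Hlx, Meox1 and Shox2 were marked in 2 PBS libraries and 1 CTX library, and Evx1 and Gsx1 in 2 PBS libraries only. Uncx was marked in 1 PBS and 2 CTX libraries, Alx1, Alx4, Dbx1, Evx2 and Pitx3 in 1 PBS library each, and Mnx1, the motor neuron gene, in CTX replicate 1 only. The mark of Uncx was a peak that reached 133 to 139 bp into the edge of the window.

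**Figure D2:**
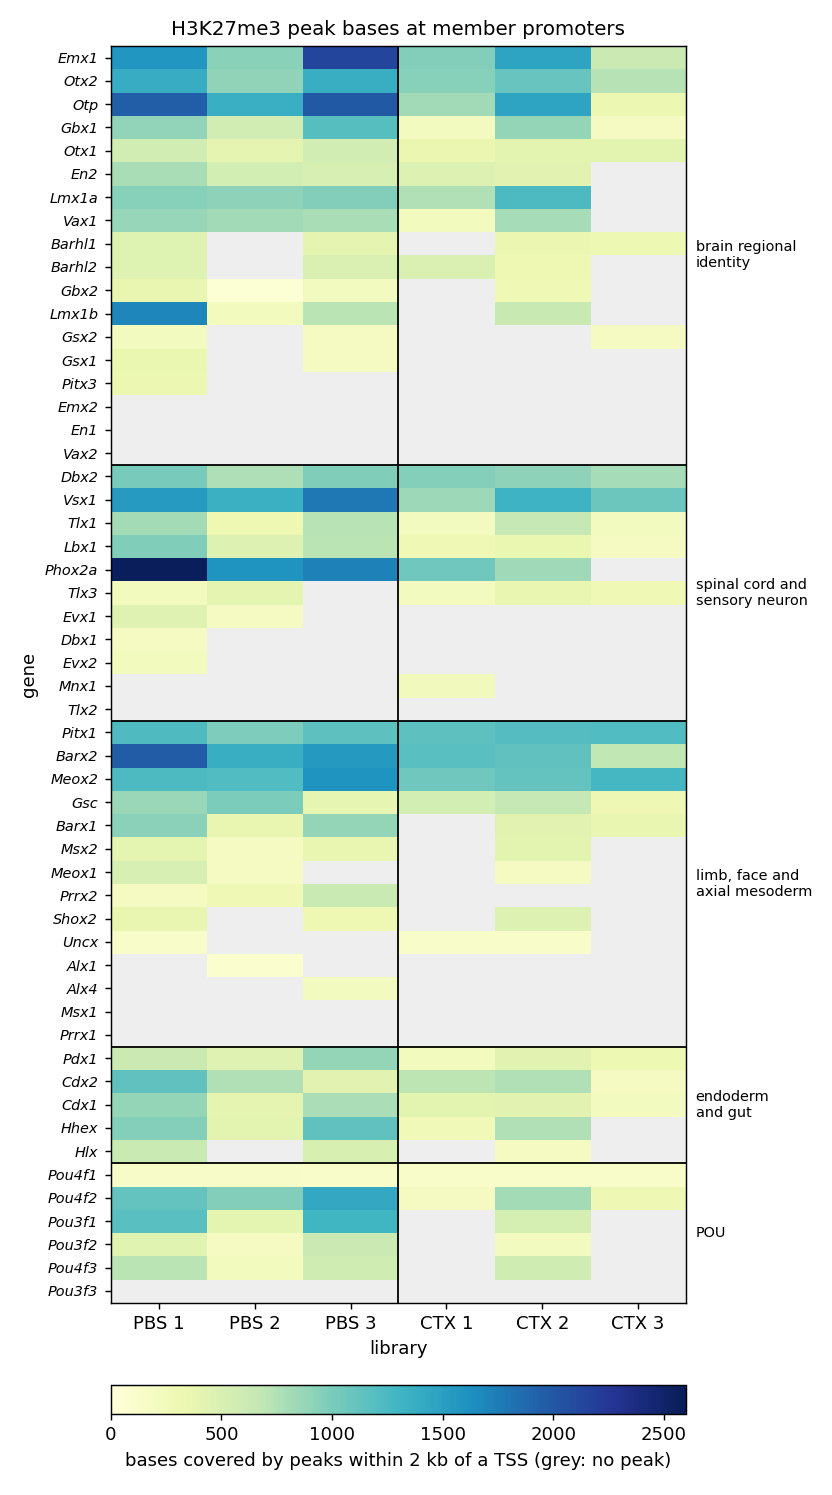
Each row is a gene, grouped by developmental role, and each column a library, with color giving the bases covered by peaks within 2 kb of a TSS and grey no peak. 18 rows are filled in all 6 libraries, 7 rows are empty, and the row of Prrx2 is filled in the 3 PBS libraries and empty in the 3 CTX libraries.

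The strongest promoter peaks of the 18 genes marked in all 6 libraries were ranked by q-value among the peaks of the same library, with 100 as the highest percentile. The median percentile over the 18 genes was 86.2, 82.6 and 81.3 in PBS libraries and 80.3, 87.1 and 77.2 in CTX libraries, with means of 83.4 ± 2.55 and 81.5 ± 5.06 (SD, n = 3) and overlapping groups. Single genes ranked far lower, down to percentiles of 4.01 for Cdx1 in CTX replicate 3 and 4.54 for Otx1 in CTX replicate 1.

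Pitx1 (chr13:55825051-55836192) ranked highest, with percentiles of 98.7, 96.9 and 95.5 in PBS libraries and 95.5, 96.3 and 93.9 in CTX libraries. Its peaks covered 1221, 976 and 1139 bp in PBS libraries and 1139, 1197 and 1215 bp in CTX libraries, so the groups overlapped in covered length. It was 1 of 4 genes whose mean covered length was higher in the CTX group, with Mnx1, Tlx3 and Uncx. A stretch of 976 bp of Pitx1, intronic by annotation, was covered in all 6 libraries and was the longest such stretch of the group.

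Dbx2 (chr15:95623563-95655960) had percentiles of 93.9 to 98.7 over the 6 libraries, and peaks covered 1015, 759 and 968 bp in PBS libraries and 947, 914 and 797 bp in CTX libraries. The part common to all 6 libraries was 759 bp and held 479 bp of coding sequence. Barx2 (chr9:31846044-31913462), a factor of muscle, cartilage and epithelium, was covered over 1967, 1361 and 1544 bp in PBS libraries and 1176, 1135 and 678 bp in CTX libraries. Every PBS library of Barx2 was above every CTX library.

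Emx1 (chr6:85187438-85204462) was covered over 1584, 933 and 2134 bp in PBS libraries and 955, 1459 and 614 bp in CTX libraries, with overlapping groups. Otx2 (chr14:48657677-48673819) was covered over 1387, 902 and 1371 bp and over 944, 1096 and 723 bp, respectively, summed over windows around 10 annotated TSSs. Both are head genes, and both kept percentiles of at least 85.98 in every library.

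Vsx1 (chr2:150680702-150689360) was covered over 1537, 1347 and 1783 bp in PBS libraries and 835, 1323 and 1072 bp in CTX libraries, without overlap of the groups. Pdx1 (chr5:147269959-147275848) was covered over 618, 440 and 877 bp and over 218, 417 and 315 bp, respectively, again without overlap. Tlx1 (chr19:45150680-45156943), a spleen and sensory neuron gene, was covered over 810, 307 and 711 bp and over 210, 655 and 211 bp, and there CTX replicate 2 was above PBS replicate 2.

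Over the 47 genes with a promoter peak in at least 1 library, covered length was higher in every PBS than in every CTX library at 8 genes (17%): Barx2, En2, Lbx1, Pdx1, Phox2a, Pou4f2, Prrx2 and Vsx1. Among the 2631 protein-coding genes with a promoter peak in at least 1 library the share was 19.2%. The opposite order was found at none of the 47 (0) and at 0.304% of the 2631. The mean was lower in the CTX group at 43 of the 47 genes, and at 84.6% of the 2631. Leaving out 1 library gave 25 genes (54.3%) without PBS replicate 2, 21 (44.7%) without CTX replicate 2 and 13 (28.3%) without PBS replicate 3, against 41.7%, 34.9% and 24.7% of protein-coding genes with a peak. Without PBS replicate 1, CTX replicate 1 or CTX replicate 3 the count was 8 (18.2%), 8 (17.4%) and 9 (19.1%). The shares of protein-coding genes with a peak were 23.7%, 22.9% and 20.4%, respectively.

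The widest cover in a single library was at Phox2a in PBS replicate 1. Phox2a is a factor of noradrenergic neurons, and its peaks covered 2573, 1586 and 1726 bp in PBS libraries and 1055, 828 and 0 bp in CTX libraries. The 250 bases before its start (22 CpGs) were covered wholly in the 3 PBS libraries, over 146 bases in CTX replicates 1 and 2, and not at all in CTX replicate 3. En2, the midbrain and hindbrain gene, was covered over 790, 544 and 513 bp and over 477, 424 and 0 bp. Lmx1a, of the dopaminergic midbrain, had full cover of the 250 bases before its start in all libraries but CTX replicate 3, where it had no promoter peak.

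Prrx2, marked in the 3 PBS libraries and in none of the CTX libraries (chr2:30834972-30881251), is a factor of limb and skeletal mesenchyme. Its covered length was 200, 288 and 625 bp in PBS libraries and 0 bp in CTX libraries. The Prrx2 peaks were weak, with percentiles of 19.9, 4.09 and 25.4 in their own lists and pileups of 14, 11 and 14 reads. Over all protein-coding genes 0.396% showed this pattern, but 88% had no promoter peak in any library and could not show it. Among genes marked in all 3 PBS libraries, 3.23% of 31 in the group and 6.64% of 1296 others had no peak in the CTX libraries. The reverse pattern was found at no gene of the group (0) and at 0% of all protein-coding genes. With a q-value threshold of 0.01 in place of 0.05 no gene of the group had the pattern (0). Without CTX replicate 2 it was found at 7 genes (Prrx2, Gbx2, Lmx1b, Msx2, Pou3f1, Pou3f2 and Pou4f3). This was 13% of the group against 0.907% of all protein-coding genes, but the latter share includes the never-marked genes. In that setting 199 protein-coding genes had the pattern, these 7 included, out of the 31 and 1296 others marked in all 3 PBS libraries. The gene changed from Prrx2 to Lmx1b with equal peak numbers and to Pou3f1 at a q-value of 1e-05. Without PBS replicate 2 it was found at 2 genes, Prrx2 and Gsx1, and without PBS replicate 3 at 2, Prrx2 and Evx1.

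The other 6 genes found without CTX replicate 2 had a peak in all 3 PBS libraries and, in the CTX group, in replicate 2 alone. Among genes marked in all 3 PBS libraries, 19.4% of 31 in the group and 12.2% of 1296 others were marked in 1 CTX library, whichever it was. CTX replicate 2 was the deepest CTX library, at 1630 reads per Mb. Lmx1b (chr2:33560965-33640511), which patterns the dorsal limb and hindbrain, was covered over 1696, 219 and 704 bp in PBS libraries and 630 bp in CTX replicate 2. Pou3f1 (chr4:124656807-124660655), a Schwann cell factor, was covered over 1178, 399 and 1292 bp and 537 bp, respectively. Pou3f2 (chr4:22482780-22488366), a neuronal factor, was covered over 432, 200 and 613 bp and 213 bp. The cover in CTX replicate 2 was thus below that of PBS replicates 1 and 3 and above that of PBS replicate 2 at these 3 genes.

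Pou4f3 (chr18:42394539-42397249), the hair cell factor of the inner ear, was covered over 703, 233 and 583 bp in PBS libraries and 580 bp in CTX replicate 2. Msx2 (chr13:53466884-53473074), a target of BMP signalling in skull and limb, was covered over 402, 200 and 372 bp and 415 bp, respectively. Gbx2 (chr1:89927956-89931179), of the midbrain and hindbrain boundary, was covered over 360, 41 and 207 bp and 292 bp. In CTX replicate 2 the cover at Msx2 was above all 3 PBS libraries. None of the 6 had a promoter peak in CTX replicate 1 or 3, whose depths were 1433 and 1118 reads per Mb. All 6 had one in PBS replicate 2, whose depth was 1376 reads per Mb. The part of depth in this pattern was not tested.

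A total of 7 genes (13%) were unmarked in every library, against 88% of all protein-coding genes: Emx2, En1, Msx1, Pou3f3, Prrx1, Tlx2 and Vax2. In 6 of the 7 a peak was nevertheless found within 10 kb of the gene in at least 1 library. At Vax2, an eye gene, the nearest peak lay 2558, 2704 and 2554 bp from a TSS in PBS libraries and 2524, 2703 and 4015 bp in CTX libraries. At Msx1, a BMP target of tooth and face, it lay 5292 to 6554 bp away in all 6 libraries. At En1, of the midbrain and limb, it lay 2326 to 2488 bp away in 4 libraries. The nearest peak of any library lay 2455 bp from a TSS at Prrx1, 2315 bp at Pou3f3 and 2379 bp at Tlx2, so the score of these genes depends on the window of 2000 bp.

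Emx2 was the exception. No peak lay within 10 kb of it in any library, and the nearest was at least 87381 bp from its TSS. Emx2 is known for its part in the urogenital tract and cortex. Over all 54 genes, 53 had a peak within 10 kb in at least 1 library and 34 in all 6. Whether other protein-coding genes differ in this was not tested.

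**Figure D3:**
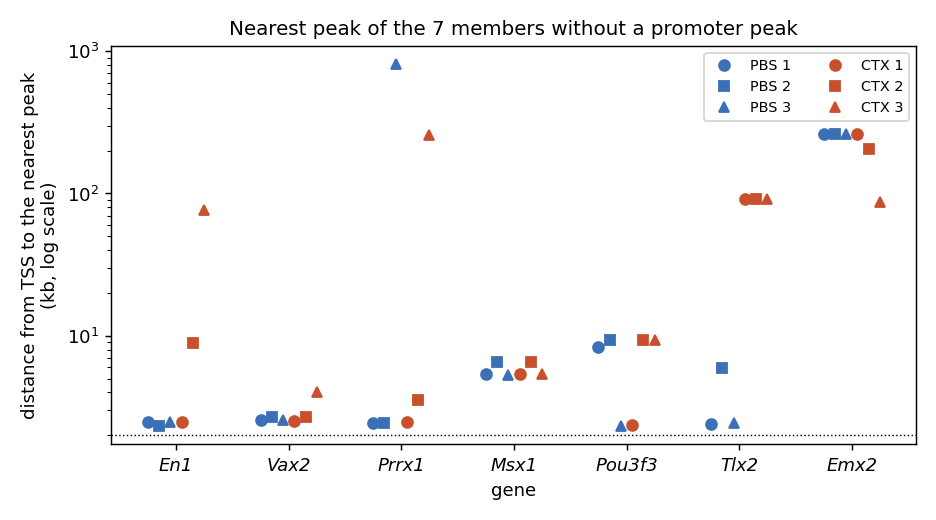
For the 7 genes without a promoter peak, each point is a library and gives the distance in kb, on a log scale, from the nearest TSS of the gene to the nearest peak, with the window limit of 2 kb as a dotted line. Vax2 and Msx1 have peaks within 10 kb in all 6 libraries, while at Emx2 the nearest peak is over 87 kb away.

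Some paralogs differed from each other in these lists, while Otx1 and Otx2, Cdx1 and Cdx2, and Pou4f1 and Pou4f2 were marked in all 6 libraries. Emx1 was marked in all 6 libraries and Emx2 in none, Tlx1 in all 6 and Tlx2 in none, and Dbx2 in all 6 and Dbx1 in PBS replicate 1 alone. Pitx1 was marked in all 6 libraries, and Pitx3, known from the lens and dopaminergic neurons, in PBS replicate 1 alone, over 335 bp at a percentile of 85.3. At Dbx1 the peak covered 200 bp at a percentile of 10.8, and a further peak lay 3018 to 3171 bp from the TSS in the other 5 libraries.

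To compare the height of the mark where every library had a peak, the highest pileup of the peaks overlapping a promoter window was taken. It was used also where its summit lay outside the window. The values were scaled to 1000 reads per Mb at 771 promoters that had one in all 6 libraries, and tested by limma. All 18 genes of the group that were marked in all 6 libraries were among them. The fitted log2 difference (CTX minus PBS) was below 0 at all 18, of which 7 turned positive when libraries were scaled by their median ratio. Its median was -0.31 over the 18 and -0.28 over the 771 promoters, 91.4% of which were below 0. With the median-ratio scaling the medians were -0.0298 and 0.0012, respectively.

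Otx1 was the 1 gene of the group that passed the test, at a threshold of 0.05 on the adjusted p. Its scaled pileups were 20.9, 21.8 and 28.2 in PBS libraries and 14.0, 15.3 and 17.0 in CTX libraries, so every PBS library was above every CTX library. The log2 difference was -0.61 (SE 0.17, limma with Benjamini-Hochberg adjusted p = 0.0329), or -0.33 relative to the median of all promoters. The call was lost with the median-ratio scaling (adjusted p = 0.626) and without any 1 library other than PBS replicate 1 (adjusted p = 0.0569 to 0.157). Of the 771 promoters 9.99% were called lower and 1.04% higher, and of the 18 genes 1 was called lower and none higher (0).

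The highest mean pileup of the 18 genes in both groups was at Pitx1, with 68.5, 61.1 and 62.1 reads per 1000 reads per Mb in PBS libraries and 48.1, 52.2 and 50.1 in CTX libraries (log2 difference -0.35, SE 0.16, adjusted p = 0.117, limma). Groups did not overlap at Pitx1, nor at Otx1, Gbx1, Pou4f1, Cdx1, Cdx2, Dbx2, Otp, Pdx1 and Lbx1, and they overlapped at the rest of the 18. The share of the 771 promoters without overlap is not given here. Emx1 followed with 64.4, 50.2 and 70.2 in PBS libraries and 40.5, 56.5 and 50.1 in CTX libraries (log2 difference -0.33, SE 0.18, adjusted p = 0.165), with overlap. Gbx1 had 35.2, 37.8 and 35.1 and then 20.9, 28.8 and 30.4 (log2 difference -0.45, SE 0.16, adjusted p = 0.0655), without overlap but short of the threshold.

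The smallest difference was at Otx2, with 42.9, 42.2 and 45.8 in PBS libraries and 44.7, 41.7 and 36.7 in CTX libraries (log2 difference -0.09, SE 0.15, adjusted p = 0.635). Meox2, the gene with the lowest pileups in the PBS group, had 17.9, 19.6 and 20.7 there and 16.7, 19.6 and 17.9 in CTX libraries (log2 difference -0.10, SE 0.16, adjusted p = 0.613). Of the other genes with a high rank, Dbx2 differed by -0.37 on the log2 scale (adjusted p = 0.0875), Tlx1 by -0.29 (0.19), Pdx1 by -0.25 (0.2), Barx2 by -0.25 (0.234) and Vsx1 by -0.20 (0.327). Under the median-ratio scaling Otx2, Vsx1, Barx2 and Pdx1 turned positive, at 0.19, 0.08, 0.03 and 0.03.

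**Figure D4:**
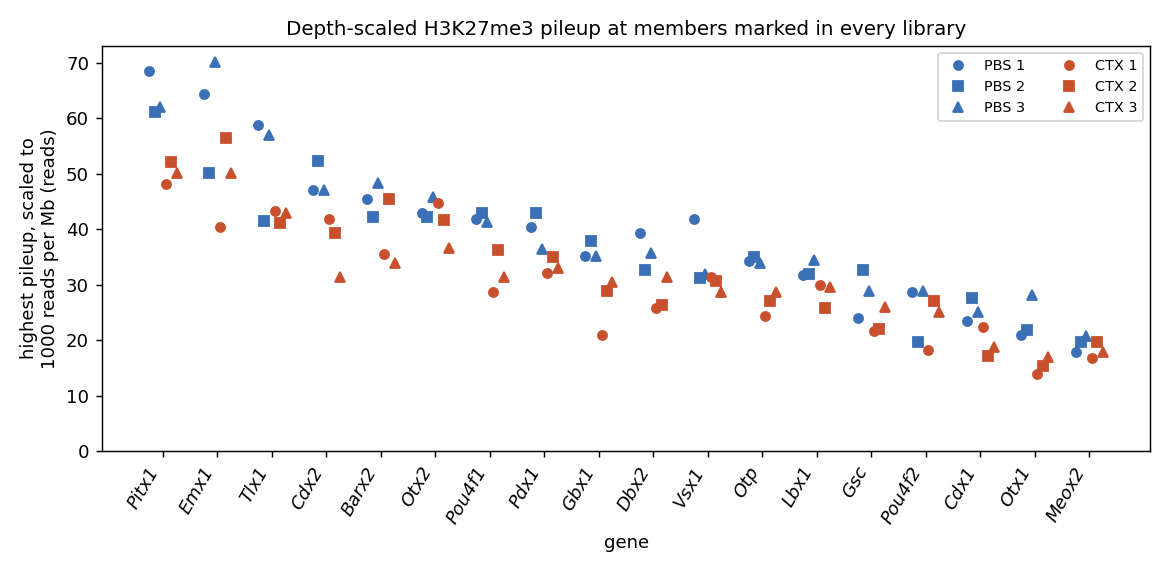
For each of the 18 genes marked in every library, the points give the highest pileup of the peaks overlapping the promoter window in each library. Pileups are scaled to 1000 reads per Mb, with blue for the PBS and red for the CTX group. The highest single point is Emx1 at 70.2 in PBS replicate 3, and the colors separate at Otx1, among other genes, and overlap at Otx2.

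The start site itself was seldom covered in these genes, and whether other marked genes differ in this was not tested. Peaks covered a TSS in all 6 libraries at 2 genes, Meox2 and Vsx1, and in at least 1 library at 12 genes. Of the 18 genes marked in all 6 libraries, 12 had no TSS covered in any library. The mean coverage of these 18 genes was highest in both groups downstream, between 1500 and 1750 bp from the 5′-most TSS, where peaks covered 38.0%, 26.0% and 27.2% of the bases in PBS libraries and 19.9%, 31.0% and 14.0% in CTX libraries. Between 750 and 1000 bp it was 14.8%, 3.2% and 12.2% and 1.6%, 5.3% and 2.4%, respectively.

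**Figure D5:**
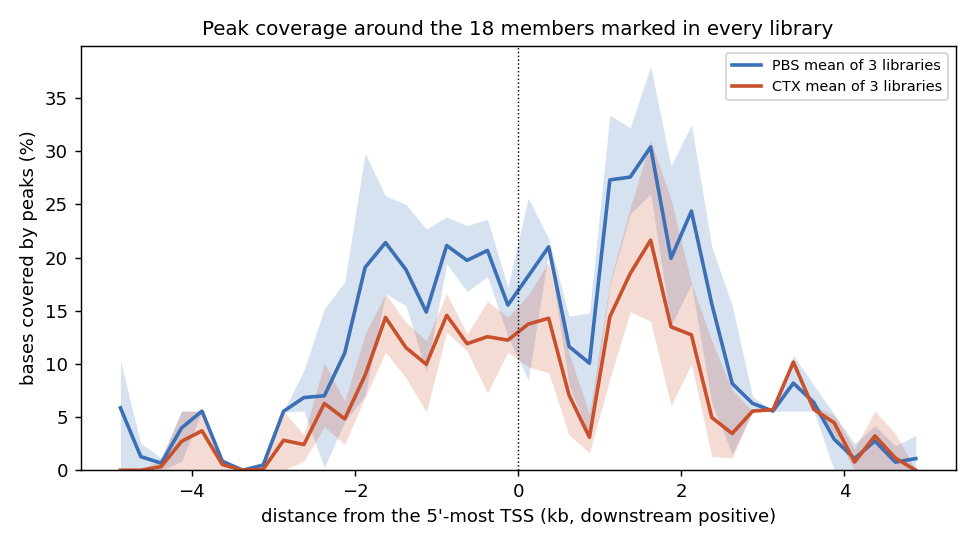
Lines give the mean percentage of bases covered by peaks in bins of 250 bp around the 5′-most TSS of the 18 genes marked in all 6 libraries, and bands the lowest and highest of 3 libraries per group. Cover lies on both sides of the start, and the bands of the groups overlap in many bins. The genes were chosen for having a peak within 2 kb of a TSS in every library, which favors cover within that distance. Downstream, cover continues past 2 kb in all 6 libraries.

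Bases covered in all 6 libraries were found at 14 of these 18 genes, in 16 stretches of 6182 bp in total. By the annotation of any transcript on either strand, 55.1% of these bases lay in introns, 24.2% in intergenic sequence, 12.2% in coding sequence and 8.52% in UTRs. The intronic bases included 562 at Otx2 and 390 at Meox2 that lay upstream of the gene, in introns of other genes. At Pou4f1 the peak entered the window only at its edge, with 132 to 143 bp covered 1858 to 1869 bp from the TSS, and the promoter shown above was left free. At Otx1 the common stretch was 328 bp of intergenic sequence (chr11:22004350-22004677), centred at -1617 bp from the nearest TSS.

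The genes had promoters rich in CpG. RefSeq (GRCm38) held 44 promoters of 40 of the 54 genes, and the 250 bases before the start held a median of 15 CpGs (3 to 47) against 6 over 32851 promoters. Of these 44 promoters 81.8% had at least 10 CpGs, compared with 37.8% of all. The CpG (the letters CG, the same on both strands) was present at least once in 100% of the 44 and in 92.1% of all. Peaks touched the 250 bases in at least 1 library at 8 of the 44 promoters and left 36 free in every library. Whether promoters of other genes differ in this was not tested. Vsx1, covered over all 250 bases in all 6 libraries like Meox2, had the fewest CpGs, 3.

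Within 500 bp of the 5′-most TSS, the CpG ratio, observed over expected from base composition, had a median of 0.721 at the 18 genes marked in all 6 libraries and 0.803 at the 23 marked in 2 to 5. It was 0.655 at the 13 marked in 0 or 1 library, 0.552 over all protein-coding genes and 0.635 over the 772 protein-coding genes marked in all 6 libraries. The ranges were wide, from 0.19 to 1.02 at the 18 genes, so the classes overlapped, and the number of libraries with a peak did not follow the CpG ratio in order.

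Among other homeobox and POU genes, 7 of 33 were marked in all 6 libraries and 15 in none. Of 35 genes of the TALE, CUT, zinc-finger, HNF and Prospero classes, 6 were marked in all 6 and 25 in none. The share marked in all 6 libraries was 33.3% in the 54 genes, 15.4% of 39 Hox genes, 35.7% of 14 Nkx genes, 20% of 10 Lhx and Isl genes and 22.2% of 9 Pax genes. It was 50% of 6 Dlx genes, 50% of 6 Irx genes and 33.3% of 6 sine oculis-type genes. The 6 core genes of Polycomb repressive complex 2 were unmarked in every library (0).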

How the data were processed

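H3K27me3 was measured by CUT&Tag in 6 libraries, 3 per group, grouped by the treatment in the sample labels. Per the labels and the methods, the authors trimmed reads with fastp, aligned them with BWA to mm10, kept uniquely mapped, de-duplicated reads and called peaks for each library with MACS2 2.1.0 at a q-value of 0.05. Use of a control library is not given in the sources used here. The deposited lists give for each summit a score, a fold enrichment (ratio of pileup to local background), the −log10 p-value, the −log10 q-value and the summit offset. Replicates were not pooled in peak calling, and H3K27me3 domains can appear as several narrow peaks.

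The 54 genes, their role groups and the marker lists were chosen with earlier results of these data known. Genes given with values in every library were the 8 of highest mean rank percentile among those marked in all 6 libraries, those marked in all libraries of a group and none or 1 of the other, and paralogs that differed. Of the related homeobox and POU lists only counts are given, and the names of their marked genes are not reported here. Phox2a, En2, Lmx1a, Otx1, Gbx1, Meox2 and Pou4f1 were added after their values were seen.

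Overlapping or touching intervals were merged, and an overlap of 1 bp with the window of 2000 bp around any TSS of the GENCODE annotation (GRCm38) scored a gene. Rank percentiles order the peaks of a library by −log10 q-value. Whole-number pileups were solved from fold enrichment and p-value for 99.8% to 99.9% of summits, and depth from the most frequent background, which is the floor for the whole genome. No spike-in was used here. Library values were set against each other in exact two-sided permutation tests (SciPy 1.17.1). Pileups on the log2 scale were tested with limma 3.58.1 (R 4.3.3) with a trend, adjusted by Benjamini-Hochberg over 771 promoters. Scripts were tested on simulated data. Libraries are pools of mice, and p-values measure the spread between pools. Alternatives were q-values of 0.01 and 1e-05, windows of 1000 and 5000 bp, peaks joined within 1000 bp, equal peak numbers, a single window per gene, peaks at least 50% repeats left out, other scalings and each library left out. The window of 5000 bp and all alternatives for the count of genes with separate covered lengths were added after the data were seen.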

Additional observations from a re-analysis of the deposited data

How the results depend on the processing

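The differences in marked genes and in covered bases kept their direction under every alternative tried, at -14.5 to -7 genes and -17.9 to -10.3 kb when 1 library was left out. With equal peak numbers they were -4.67 genes and -7.32 kb, and the difference in cover was -8.91 kb at a q-value of 1e-05, -7.08 kb with the window of 1000 bp and -23.5 kb with that of 5000 bp. Values per library cannot fall below p = 0.1 in this design, so the permutation tests do not speak to stability. The difference in share ran from -0.0628 to 0.0974 percentage points when 1 library was left out and was -0.163 with the window of 1000 bp, 0.106 at a q-value of 0.01 and 0.307 at 1e-05. The difference in rank percentile was 0.852 with summits required in the window, -12.2 at a q-value of 1e-05, -8.02 ranked by fold enrichment, -7.72 with the window of 5000 bp, -4.98 with a single window per gene and -4.64 to -0.436 when 1 library was left out. Genes marked in all 6 libraries numbered 18 in the main setting, 9 at a q-value of 1e-05, 7 with the window of 1000 bp and 18 to 23 when 1 library was left out. Over all protein-coding genes, promoters with a pileup in all 6 libraries numbered 771 in the main setting and 603 with the window of 1000 bp. The fall with the smaller window was thus larger in the group. The count over all genes at a q-value of 1e-05 is not given here. Genes marked in PBS libraries only numbered 0 at a q-value of 0.01 and with a single window per gene, 2 with the window of 1000 bp (Prrx2 and Pou3f2) and 1 to 7 when 1 library was left out. Of all protein-coding genes, never-marked ones included, the shares were 0.355%, 0.378%, 0.36% and 0.451% to 0.907%, respectively. Genes with higher cover in every PBS library numbered 5 (11.1%) at a q-value of 0.01, 3 (8.33%) at 1e-05 and 18 (34.6%) with the window of 5000 bp. The shares of protein-coding genes with a peak were 19.5%, 15.4% and 17.4%, respectively.

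Of all promoters tested by limma, 77 were called lower and 8 higher. The counts of lower calls were 2 with median-ratio scaling, 39 with promoters marked in at least 4 libraries, 39 with a single window per gene, 150 without repeat-rich peaks, and 5 to 128 when 1 library was left out. The counts of higher calls were 4 with the window of 1000 bp, 2 without repeat-rich peaks and 4 to 9 when 1 library was left out. Of the genes of the group, 0 were called lower with median-ratio scaling and with the window of 1000 bp, 4 without repeat-rich peaks (Cdx2, Gbx1, Otx1 and Pou4f1) and 0 to 1 when 1 library was left out. The median-ratio scaling turned the log2 difference to 0.0286 at Barx2, 0.187 at Otx2, 0.026 at Pdx1 and 0.0787 at Vsx1. The cause of these shifts was not tested. Deviations of same-numbered libraries of the groups had correlations of -0.0915, -0.174 and -0.0448, and those of other pairs -0.0628 to 0.148. With 3 libraries per group, these values do not settle whether the numbers paired the libraries. A replicate block gave 20 lower and 5 higher calls over all promoters and 1 lower call in the group, Otx1. Depth limits the score, since a peak below the threshold in a shallow library counts as absent.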
